A study of Glycine max with 42 samples.

Results

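Sterile and control leaves of the soybean (Glycine max) line T295H were compared at day 63 after planting, with 3 RNA sequencing libraries in each group. These 6 of the 42 libraries of the study were chosen by their labels of line, group and day. The T295H table holds 15 libraries, and its other 9 libraries (an initial group of day 28 at the R2 flowering stage, and control and sterile groups of day 35, 3 each) entered the same fit and served for comparison. The table lists 37403 genes, of which 29370 had a mean of at least 10 normalised counts over the 15 libraries and were tested. All libraries came from trifoliate leaves. The submitters describe the sterile plants as genetically sink-limited. The labels give neither the locus behind the sterility nor the genotype of the controls. They also do not say whether each library stands for its own plant, or whether the plants of the initial group were sterile.

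Soybean is a monocarpic plant, whose leaves normally age while the seeds fill. During this phase nitrogen and carbon are moved out of the leaf to the seeds, photosynthetic proteins are broken down, and the leaf ends in senescence. A plant that sets no seed lacks this strong sink, and in soybean such plants are known to keep green leaves for longer and to store nitrogen in vegetative storage proteins. This is background, and none of it could be read from single genes here. None of the 37403 gene IDs (0 matches) could be paired with any of the 59048 genes of the reference list, so genes are given by their ID, with no name or role. For the same reason leaf markers and markers of seed, nodule, root, flower and stem could not be looked up, and the labelled tissue could not be checked.

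Counts recovered from the deposited values came to between 8538194 and 11598312 per library at day 63. A count was present for 34841 to 35265 genes in the sterile libraries and for 32904 to 33480 in the controls, so the groups did not overlap in this number. The 10 most abundant genes held 6.31% to 7.46% of counts in sterile and 4.22% to 5.07% in control libraries. Among the other libraries, initial replicate 2 stood apart, with 41.3% of its counts in 10 genes. It entered the comparison through the filter on the mean and the shared estimate of the spread. Without it in the fit, and with the filter unchanged, 8175 genes were higher and 7402 lower.

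At day 63 sterile leaves differed from controls over much of the transcriptome. Of the 29370 genes tested, 7821 (26.6%) were higher and 6946 (23.6%) lower in sterile leaves at an adjusted p under 0.05, together 14767 genes or 50.3%. All 3 sterile libraries lay above all 3 controls for 8840 of the genes tested (30.1%) and below them for 8787 (29.9%). Of the called genes, 96.1% were among them, which follows in part from calling them on the same libraries. With 3 libraries per group some genes separate by chance, and how many was not estimated. Levels are log2(normalised count + 1) in the tests, which understates the change of low genes. In bulk leaf RNA, fewer cells of a type and less RNA per cell cannot be told apart.

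The changes were large. Of the called genes, 10492 (35.7% of those tested) changed by at least 1 on the log2 scale, which is 2-fold, 5975 of them higher and 4517 lower. At least 4-fold changes were seen for 2967 higher and 1955 lower genes, at least 16-fold for 672 and 475, and at least 256-fold for 40 and 24. The median log2 change was 1.61 among the higher genes, -1.28 among the lower genes and 0.02 among all genes tested.

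**Figure D1:**
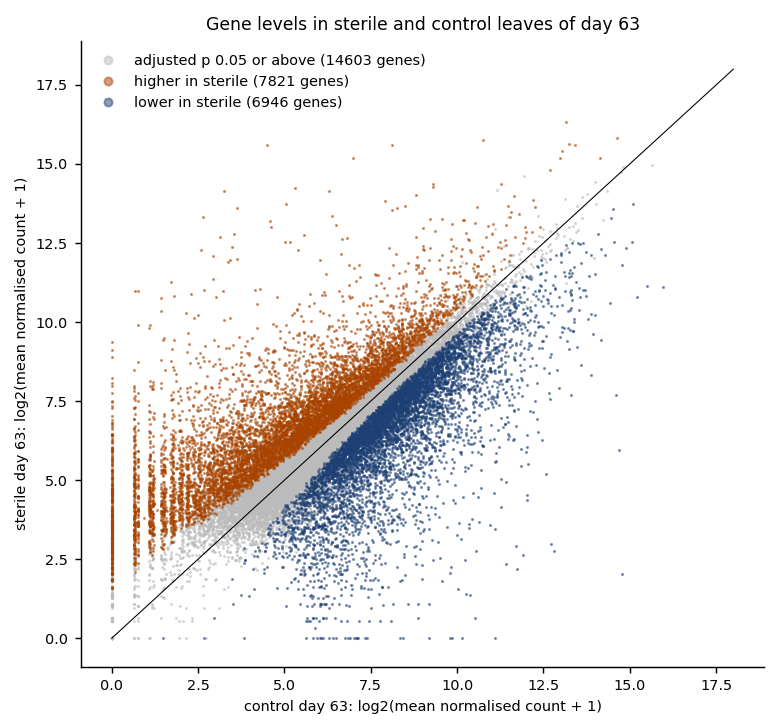
Each point is a gene, with its mean in the 3 control libraries of day 63 on the x axis and in the 3 sterile libraries on the y axis, both as log2(mean normalised count + 1). Colours mark the 7821 higher and 6946 lower genes, above and below the diagonal.

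Which direction held more genes depended on the level. By the mean over the 6 libraries of day 63, genes between 50 and 200 normalised counts were balanced, with 2760 higher and 2789 lower among 11143. Above this, lower genes prevailed, with 1508 higher and 2724 lower of 6864 genes between 200 and 1000, and 257 higher and 585 lower of 1174 between 1000 and 5000. Among the 174 genes above 5000, 48 were higher and 75 lower. The share of called genes grew with level from 49.8% to 61.7% and 71.7% over the first 3 of these bands, while the median SE fell from 0.27 to 0.20 and stood at 0.22. Below 50 the higher genes prevailed, with 2543 higher and 759 lower of 8435 genes between 10 and 50, and 705 higher and 14 lower of 1580 under 10. The filter on the mean of 15 libraries also admits genes by their level before day 63, and how far this sets the balance at low levels was not tested. With a minimum mean of 10 over the 6 libraries of day 63 in its place, 7159 genes were higher and 7199 lower.

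The called genes made up most of the RNA counted at day 63. The genes lower in sterile leaves held 55.0% to 56.5% of counts in the 3 controls and 19.7% to 21.1% in the 3 sterile libraries. The genes higher in sterile leaves held 41.1% to 43.4% of counts in sterile and 9.65% to 11.0% in control libraries. These shares follow from how the genes were chosen. The libraries of day 35 entered that choice through the filter and the shared estimate of the spread, but not through the group means compared. In them the higher genes held 48.8% to 51.6% of counts in controls and 54.9% to 57.0% in sterile leaves. The lower genes held 15.7% to 16.4% in controls and 13.2% to 13.9% in sterile leaves of day 35. In both classes the sterile libraries of day 63 lay between the libraries of day 35 and the controls of day 63, and much closer to the former.

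**Figure D2:**
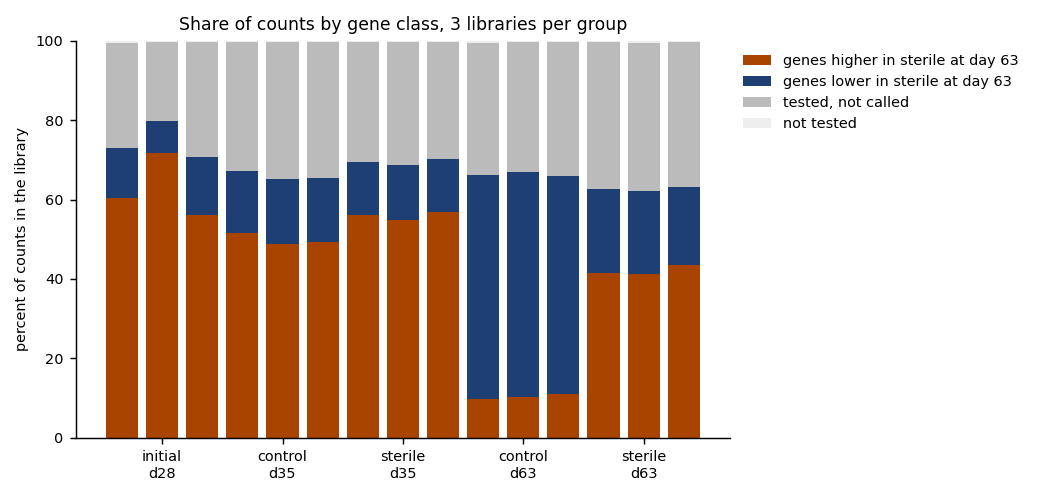
Each bar is a library, 3 per group, split by the percent of its counts in genes higher in sterile leaves at day 63, genes lower there, genes not called and genes not tested. The controls of day 63 stand apart, with 9.65% to 11.0% of counts in the higher genes against 41.1% to 43.4% in sterile libraries of that day.

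The same order was seen in single gene levels. The median level of the 7821 higher genes was 4.90 in controls of day 63 and 6.64 in sterile leaves of day 63, beside 6.79 in controls and 7.06 in sterile leaves of day 35 and 6.92 in initial leaves. For the 6946 lower genes it was 8.06 in controls of day 63 and 6.64 in sterile leaves, beside 6.40 and 6.22 in controls and sterile leaves of day 35 and 6.38 in initial leaves. In every library of the table the median over all tested genes lay between 6.26 and 6.40.

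The lists of the most abundant genes differed between the groups. Of the 100 most abundant genes of each group, 27 were shared by sterile and control leaves of day 63. Sterile leaves of day 63 shared 61 of their 100 with controls of day 35, and controls of day 63 shared 25 with them. At day 35, sterile and control leaves had 77 in common. Among the 1000 most abundant genes the same numbers were 520, 730, 387 and 876. Of the top 100 in controls of day 63, 70 were lower in sterile leaves and 5 higher, and of the top 100 in sterile leaves, 63 were higher than in controls and 4 lower. Of the top 1000, these counts were 695 lower and 66 higher in the list from controls, and 434 higher and 226 lower in the list from sterile leaves.

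Whole libraries showed the distances plainly. Across the 29370 genes, which are not independent replicates, Pearson's r of the log2 levels was 0.930 to 0.940 between sterile libraries of day 63 and 0.951 to 0.966 between controls. Between a sterile and a control library of that day r was 0.687 to 0.728. Sterile libraries of day 63 correlated with controls of day 35 at 0.863 to 0.908, while controls of day 63 did so at 0.557 to 0.613. With sterile leaves of day 35 the values were 0.799 to 0.877 for sterile and 0.431 to 0.522 for control libraries of day 63. The median SD of a gene over the 3 libraries was 0.28 in sterile and 0.30 in control leaves of day 63, on the log2 scale.

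**Figure D3:**
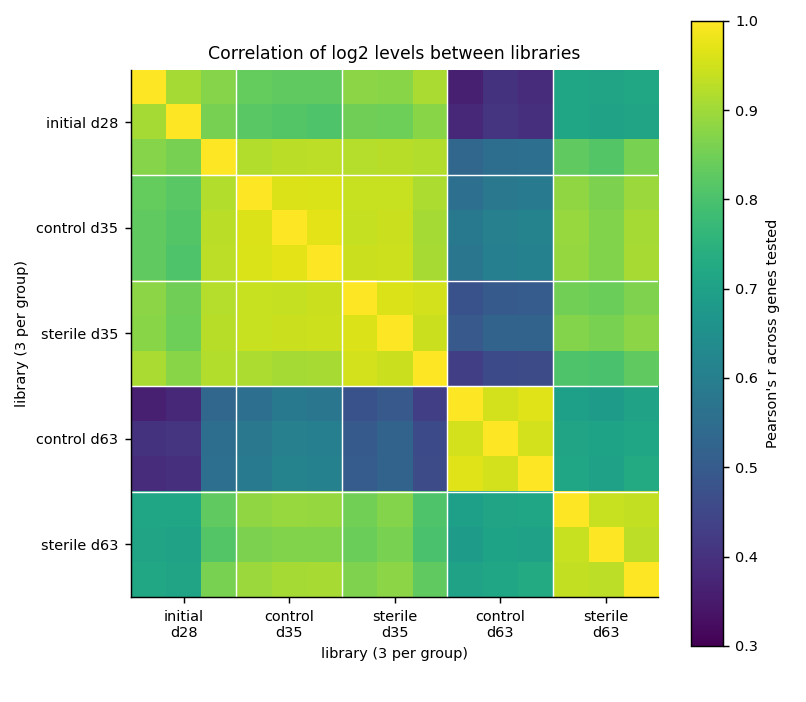
Pearson's r of log2(normalised count + 1) between all pairs of the 15 T295H libraries, over the genes tested, with 3 libraries per group along both axes. Controls of day 63 form the darkest rows, at 0.431 to 0.613 with the libraries of day 35, where sterile libraries of day 63 reach 0.799 to 0.908.

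Genes with the largest change were followed through all libraries. Glyma.12G217400 stood at 53075, 44078 and 52890 normalised counts in the 3 sterile libraries of day 63 and at 16.2, 26.9 and 21.1 in the controls. It had been abundant in both groups before, at 19693 ± 8509 in controls and 33316 ± 13116 in sterile leaves of day 35 (SD, n = 3). The controls of day 63 were thus the one group in which it was low, and sterile leaves were 2337-fold higher (log2 change 11.15, SE 0.52, adjusted p 5.11e-10). In initial leaves its mean of 12090 rested on replicate 3 and was 5302 without it.

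Glyma.14G085600 was likewise low in controls of day 63 alone. It stood at 20926, 14175 and 19075 in sterile libraries of day 63 and at 10.2, 8.41 and 7.02 in controls, a 2118-fold difference (log2 change 10.88, SE 0.38, adjusted p 8.11e-11). At day 35 it had been at 18598 ± 6331 in sterile and 7468 ± 4227 in control leaves, where the groups overlapped (log2 change 1.39, SE 0.38, adjusted p 0.137). A fit of days 35 and 63 alone (adjusted p 0.042) and DESeq2 on recovered counts (0.041) called it at day 35 as well. In initial leaves it stood at 17077 ± 8377.

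Both lower genes with the largest change were at or near 0 before day 63. They stayed so in sterile leaves and appeared in controls of day 63. Glyma.11G144900 stood at 7800, 62700 and 13501 in the controls and at 3.22, 1.66 and 4.22 in sterile libraries (log2 change -12.24, SE 0.67, adjusted p 2.54e-09). Its mean was 2.35 ± 1.04 in controls and 1.21 ± 1.04 in sterile leaves of day 35, under the floor of 3 pairs of counts. Control replicate 2 carried the control mean of 28000, which was 10650 without it, and the ratio of means, 9230, was then 3511. The sterile libraries held 6 pairs of counts, and the ratio from pooled counts, 9499, has a 95% counting interval of 4364 to 25885. Glyma.04G039900 stood at 1791, 2249 and 2470 in controls and had no count in any of the 3 sterile libraries (adjusted p 4.24e-09). Controls were at least 464-fold higher, taken against a floor of 6 counts (3 pairs) in each sterile library. Before day 63 it had counts in a single library, control replicate 1 of day 35, at 4.11.

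Presence and absence before day 63 differed between the directions. At or under the floor in every control, with a sterile mean of at least 50, were 251 of the higher genes, and 130 of the lower genes were at or under it in every sterile library with a control mean of at least 50. Of the former 251 genes, 210 (83.7%) were above the floor in each of the 9 libraries before day 63, and 0 were at or under it in all 9. Of the latter 130 genes, 2 (1.54%) were above the floor in each of the 9 and 101 (77.7%) were at or under it in all 9. Over all 21322 genes with a mean of at least 50 in either group of day 63, the shares were 87.8% above it in all 9 and 1.28% at or under it in all 9. The history of the 251 higher genes was thus close to that background, while most of the 130 lower genes were above the floor in controls of day 63 alone. A threshold of 50 in 3 libraries corresponds to the minimum mean of 10 over 15, so genes expressed in a single group could pass it. The 101 genes passed it through their level in controls of day 63.

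The levels of these genes were mostly modest. The median level was 84.6 normalised counts in sterile leaves for the 251 genes, with a highest mean of 2462, and 107 in controls for the 130 genes, with Glyma.11G144900 the highest.

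Whether the difference between sterile and control leaves changed from day 35 to day 63 was tested directly, as the difference of both log2 changes. For 7945 of 29370 genes (27.1%) it passed the threshold, 4430 (15.1%) toward higher levels in sterile leaves at day 63 and 3515 (12%) toward lower ones. Beside the genes already described, Glyma.18G258000 and Glyma.19G025600 had the largest such differences. Glyma.18G258000 stood at 1355, 2953 and 1770 in sterile libraries of day 63 and at 0, 0 and 1.76 in controls. All 6 libraries of day 35 lay between 1977 and 5107, with the groups overlapping. The difference of changes was 9.95 (SE 0.59, adjusted p 7.37e-08). The controls of day 63 held 1 pair of counts, so the ratio from pooled counts, 3323, has a 95% counting interval of 596 to 131268. Against the floor in each control, sterile leaves were at least 371-fold higher, and at least 364-fold without control replicate 3.

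Glyma.19G025600 went the other way. It stood at 3671, 4357 and 2096 in controls of day 63 and at 6.45, 0 and 4.22 in sterile libraries, and no library of day 35 exceeded 3.66. The difference of changes was -10.93 (SE 1.38, adjusted p 4.35e-05). Its ratio of means at day 63, 949, was 1600 without sterile replicate 1 and 633 without sterile replicate 2. The sterile libraries held 7 pairs of counts, and the ratio from pooled counts, 933, has a 95% counting interval of 452 to 2321. For Glyma.12G217400 and Glyma.11G144900, which the same rule named, the differences were 10.38 (SE 0.73, adjusted p 2.18e-07) and -11.53 (SE 0.95, adjusted p 7.44e-07). For Glyma.14G085600 it was 9.49 (SE 0.54, adjusted p 5.34e-08). For Glyma.04G039900 it was -10.29 (SE 0.90, adjusted p 1.43e-06), a call that edgeR did not make on recovered counts (-10.66, adjusted p 1) or on counts divided by 2 (-10.55, adjusted p 1). DESeq2 made it on counts divided by 2 (-11.11, adjusted p 4.9e-07) and not on recovered counts (-10.88, adjusted p 0.22).

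The group means compared at day 35 share no library with those of day 63. Both comparisons use the same filter and the same estimate of the spread over all 15 libraries, so their calls are not independent. At day 35, 52 genes (0.177% of those tested) were called, 28 higher and 24 lower, and 3792 genes had an unadjusted p under 0.05. The count depends on the fit: it was 1119 with the 6 libraries of day 35 alone, 804 with the 12 libraries of days 35 and 63, and 826 with DESeq2 on recovered counts. The genes called the same way at day 63 were then 757, 558 and 571. Of the 52 genes, 37 (71.2%) were called in the same direction at day 63, 18 higher and 19 lower at both days, against a background of 26.6% called higher and 23.6% called lower at day 63. They were 0.251% of the calls of day 63. In the opposite direction 1 gene was called, and 14 were called at day 35 alone, of which 4 had no count in any library of day 63. The 52 also rest on single libraries: without sterile replicate 1, 2 or 3 of day 35 it was 11, 23 and 10, and without control replicate 1, 2 or 3 of day 35 it was 33, 5 and 5. The genes called the same way at both days were then 8, 18 and 9, and 27, 5 and 4.

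Genes called at day 63 already leaned the same way at day 35. Of the 7821 higher genes, 5523 (70.6%) had a positive log2 change at day 35, and of the 6946 lower genes 2233 (32.1%), against 51.2% of all genes tested. The median changes at day 35 were 0.20 and -0.16, beside 1.61 and -1.28 at day 63. Across the 29370 genes the changes of both days correlated at 0.353 (Pearson) and 0.365 (Spearman), as a description over genes measured in libraries of the same fit and scaling.

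**Figure D4:**
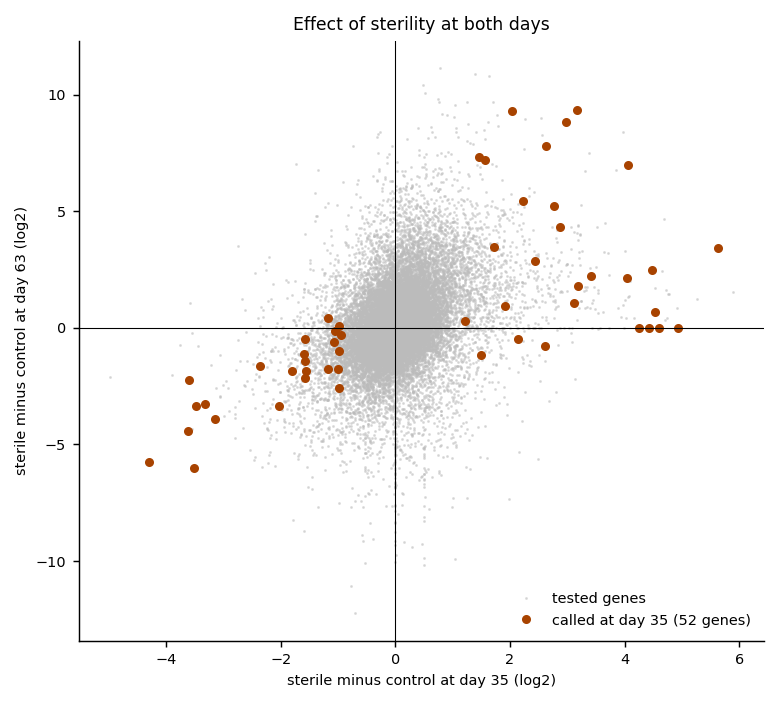
Each point is a gene, with the log2 difference of sterile minus control leaves at day 35 on the x axis and at day 63 on the y axis. Of the 52 genes called at day 35 in the fit of 15 libraries (1119 with the 6 libraries of that day alone), drawn larger, 37 were called in the same direction at day 63, and the 4 with no count at day 63 lie on the horizontal line at 0.

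Among the genes called higher at both days, 12 of 18 had a larger change at day 63, and the difference between days passed the threshold for 11. Among those called lower at both, 11 of 19 had a larger change at day 63 and the difference passed for 3. The 4 genes named here for the pair of days were picked after the values were seen, as those with the largest smaller change of both days. They were taken from genes called the same way at both days. Their higher group had to average at least 50, with no overlap of sterile and control libraries, at each day.

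Glyma.06G084200 stood at 648, 1025 and 1227 in sterile libraries of day 63 and at 2.03, 0 and 0 in controls (log2 change 9.34, SE 0.46, adjusted p 9.97e-10). At day 35 the sterile libraries held 5993, 5723 and 8814 and the controls 1724, 477 and 502 (log2 change 3.17, SE 0.46, adjusted p 0.0105). Within each kind of leaf, all 3 libraries of day 63 lay below all 3 of day 35. The ratio from pooled counts at day 63 was 1621 (95% counting interval 291 to 64060). Taken against the floor in each control, the ratio was at least 177, and at least 188 without control replicate 1. The difference between days was 6.16 (SE 0.66, adjusted p 9.41e-06). Its call at day 35 was lost without sterile replicate 1 or 3 or control replicate 2 or 3 of day 35, and without control replicate 1 the control mean of day 35 fell from 901 to 489.

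Glyma.02G109100 stood at 226, 261 and 94.2 in sterile libraries of day 63 and at 0, 1.68 and 0 in controls (log2 change 7.00, SE 0.74, adjusted p 2.21e-06). At day 35 it stood at 602, 612 and 1912 in sterile and 84.2, 45.6 and 37.1 in controls (log2 change 4.06, SE 0.74, adjusted p 0.0394). Both kinds of leaf had less of it at day 63 than at day 35. The ratio from pooled counts at day 63 was 312 (95% counting interval 55.6 to 12351). Taken against the floor in each control, the ratio was at least 35.4, and at least 34.1 without control replicate 2. Without sterile replicate 3 the sterile mean of day 35 was 607 in place of 1042. The difference between days was 2.94 (SE 1.05, adjusted p 0.0498) and missed the threshold in 15 of 26 alternatives. The call at day 35 was lost in 11 of 26, among them leaving out any 1 of the 6 libraries of day 35.

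The lower pair took another course, with all libraries of day 63 above all libraries of day 35 in both kinds of leaf. Glyma.10G205800 stood at 93.5, 84.7 and 125 in sterile and 808, 1481 and 909 in control libraries of day 63 (log2 change -3.35, SE 0.50, adjusted p 6.18e-05). At day 35 it stood at 12.5, 5.68 and 1.83 in sterile and 63.7, 73.6 and 72.7 in controls (log2 change -3.48, SE 0.50, adjusted p 0.0105). Sterile leaves of day 63 were thus above the controls of day 35 in each library, and the difference between days was 0.13 (SE 0.71, adjusted p 0.917). Without sterile replicate 1 the sterile mean of day 35 was 3.76 in place of 6.68, and the call at day 35 was lost without sterile replicate 3 or control replicate 2 or 3 of that day.

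Glyma.10G194200 stood at 179, 118 and 197 in sterile and 1354, 1822 and 1571 in control libraries of day 63 (log2 change -3.28, SE 0.46, adjusted p 3.21e-05). At day 35 it stood at 7.16, 5.68 and 7.31 in sterile and 71.9, 54.3 and 110 in controls (log2 change -3.32, SE 0.46, adjusted p 0.0103; lost without control replicate 3 of that day). The groups did not overlap at either day, which the rule that named this gene required. The difference between days was 0.03 (SE 0.65, adjusted p 0.977), so a change in the effect was not detected.

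**Figure D5:**
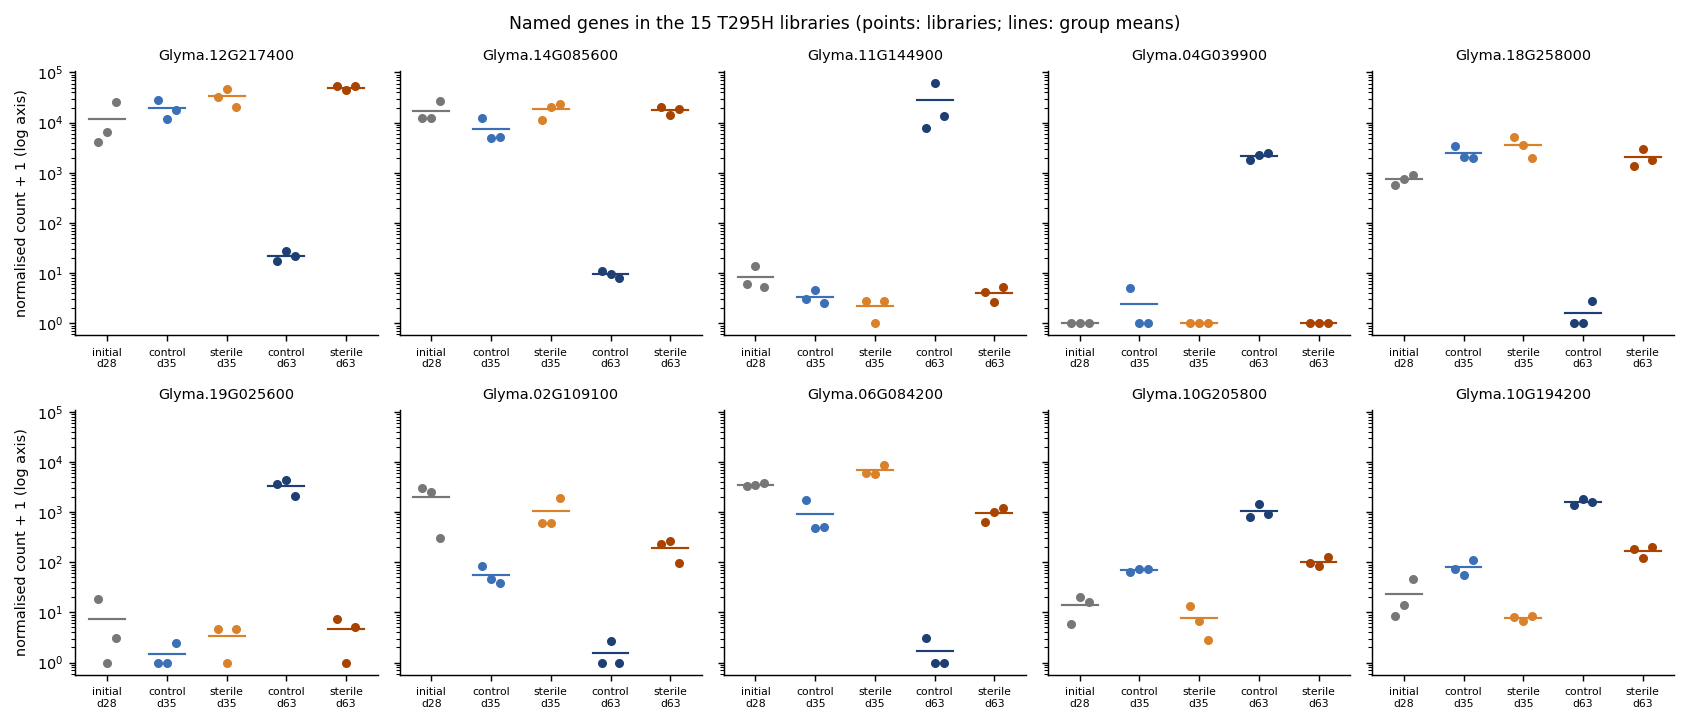
Normalised counts plus 1 on a log axis for the 10 named genes in the 15 T295H libraries, with points for libraries and lines for group means. In the first row, Glyma.12G217400, Glyma.14G085600 and Glyma.18G258000 are low in controls of day 63 alone, and Glyma.11G144900 and Glyma.04G039900 are high there alone.

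The changes were spread over all chromosomes. By the chromosome number in the gene ID, the share of tested genes that was called ran from 47.5% on chromosome 14 to 52.4% on chromosome 1 over the 20 chromosomes, around the 50.3% of all genes. The share of called genes that was higher in sterile leaves ran from 49.4% on chromosome 9 to 56.9% on chromosome 19. Taking the number in the ID as the order along the chromosome, 50.9% of called genes and 49.7% of uncalled genes were followed by a called gene. Where a pair of neighbours was called, 4206 of 7474 pairs (56.3%) had the same direction. There were 23 runs of 6 or more neighbours called one way, the longest with 12 genes. The share and the runs that an arbitrary order would give were not computed, so local grouping was not tested. Reads shared between near-identical neighbouring copies could not be recognised.

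Of the genes called at day 35, chromosome 2 held 8 of the 52 (15.4%), with 5.70% of the tested genes, and chromosome 6 held 6 (11.5%) with 5.81%. Of the 8 on chromosome 2, 6 were called in the same direction at day 63, and of the 6 on chromosome 6, 2 were. No test was made of these counts.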

How the data were processed

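RNA from soybean leaves was sequenced. For line T295H the authors deposited 1 table of signal values, which are normalised counts per gene. Bowtie2 and DESeq2 are named, with no version or role, per the submitters' processing notes. Not given in the sources used here are the genome build, annotation, counting tool and strand. Each column holds whole multiples of its smallest value, and dividing by that value gave whole counts within 0.01 for 100% of values. About 99% of counts above 0 were even (98.8% to 99.1% per library), for a reason not stated, so floors (3 pairs, or 6 counts, a normalised count of 4.22 to 6.09 at day 63) and 95% intervals (exact Clopper-Pearson) were computed on pairs. Both cover counting error only.

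Genes reaching a mean of 10 across all 15 libraries were tested with limma 3.58.1 in R 4.3.3 (trend, two-sided, Benjamini-Hochberg over all 29370 genes, threshold 0.05) on log2(normalised count + 1), with 1 mean per group and all 5 groups in the fit. The test was checked on simulated counts in which few genes changed, in sterile leaves of day 63 alone. That check does not cover changes as broad as those seen here. Alternatives used edgeR 4.0.16 and DESeq2 1.42.0 on recovered counts, other filters, pseudocounts and scalings, a replicate block and fits without 1 library. Since separate plants are not stated, p-values cover only the spread among these libraries, possibly technical. No 2 libraries of a group at day 63 were within sampling noise (lowest chi-square per degree of freedom 5.04). Named genes were the 2 higher and 2 lower genes of largest change, and of largest difference between days, among called genes whose higher group averaged at least 50 and no overlap of its libraries. The comparison, genes and lists were chosen with earlier results of these data known. The planned lists by gene name could not be applied, and the Williams 82 table was not used here.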

Additional observations from a re-analysis of the deposited data

Results flagged for a closer look

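For 7945 genes the sterile minus control change at day 63 differed from that at day 35, by the test of the difference itself. The 8 named genes past that test had differences of log2 changes (day 63 minus day 35) of 10.38 for Glyma.12G217400, 9.49 for Glyma.14G085600, -11.53 for Glyma.11G144900, -10.29 for Glyma.04G039900, 9.95 for Glyma.18G258000, -10.93 for Glyma.19G025600, 2.94 for Glyma.02G109100 and 6.16 for Glyma.06G084200. For all 8 the change at day 63 was the larger one. That of Glyma.02G109100 lies at the threshold.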

How the results depend on the processing

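Counts of higher and lower genes at day 63, and of genes whose effect differed between days, stayed within 1.5 times of those reported under every alternative run. At day 63 they ran from 5677 to 8520 higher and from 5622 to 7916 lower. On the recovered counts edgeR called 8236 higher and 6789 lower, and DESeq2 8140 and 7470. The 10 named genes kept their calls at day 63 throughout. The count at day 35 (52) was 1119 when the 6 libraries of that day were fitted alone, 804 in the fit of days 35 and 63 (chosen after seeing the data), 95 with a pseudocount of 5, 110 with quantile normalization, 101 with edgeR on halved counts, 826 with DESeq2, and 589 with DESeq2 on halved counts (chosen after seeing the data). The genes called the same way at both days (37) were then 757, 558, 67, 70, 76, 571 and 402. The cause was not tested. Leaving out 1 library gave 5 to 55 calls at day 35 and 4 to 41 shared genes. Replicates of equal number share only that number: deviations of sterile and control libraries from their group means correlated at 0.02, 0.10 and 0.15 at day 63 and at -0.03, 0.05 and -0.10 at day 35. With replicate number as a block, 7748 genes were higher and 6880 lower at day 63, 4361 and 3464 differed between days, and 38 were called at day 35, of which 30 were shared. At day 63, 5 of 6 libraries correlated best with their own number. The block ended the call of Glyma.02G109100 at day 35 (adjusted p 0.05). Other scalings moved the median change of all genes by under 0.1. Counting depth limits the folds of genes at or near 0 in a group.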
